A study of Mus musculus with 4 samples.

Results

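The genes described here are 10 members of the JAK-STAT pathway, taken by symbol from the 27998 genes of the count matrices. They are the kinases Jak1 and Jak3, the transcription factors Stat3, Stat4, Stat5a, Stat5b and Stat6, and the feedback inhibitors Socs1, Socs3 and Cish. Their transcripts were counted by single-cell RNA sequencing in spleen CD8+ T cells specific for a virus, from mixed bone marrow chimeras of wild-type (WT, CD45.1) and Bcl3-/- (KO, CD45.2) donors in Rag1-/- hosts, all on a C57BL/6 background. Both chimeras received marrow after 400 rads of sublethal irradiation, had at least 6 weeks to reconstitute, and were then infected with 200000 pfu of lymphocytic choriomeningitis virus (LCMV) Armstrong. On day 8, CD8+ T cells that bound the H-2Db-GP33 tetramer were sorted by CD45 allele, which gave 1 WT and 1 KO library from each of 2 chimeras. The number in a library's title (WT1, KO1, WT2, KO2) was taken as that of its chimera, and each pairing by chimera below rests on this reading of the titles. Because each genotype had its own donor and CD45 allele, genotype and donor cannot be told apart. The Rag1-/- hosts lack their own mature T and B cells, so these came from the marrow given.

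The 4 libraries held 21193300 (WT1), 22922219 (KO1), 20358780 (WT2) and 22672343 (KO2) unique molecular identifiers (UMIs), each of which marks 1 captured transcript. After cells under 500 genes or over 10% mitochondrial UMIs had been removed, cells numbered 4941, 5366, 8092 and 6494 in the same order, with a median of 3571, 3620.5, 2019 and 2948 UMIs per cell. Between 37 and 63 cell barcodes were shared by any pair of libraries, close to the 36.0 to 71.3 that a random draw of barcodes gives. The sort label held in the transcripts of the T cell clusters: the CD8 chain Cd8a stood at 553, 497, 515 and 523 UMIs per 1000000 (CPM), and Cd4 at 2.70, 2.12, 2.91 and 1.80 CPM, in WT1, KO1, WT2 and KO2. Over all cells Bcl3, the gene targeted in KO mice, was at 33.2 and 27.6 CPM in WT1 and KO1 of chimera 1 and at 108 and 86.6 CPM in WT2 and KO2 of chimera 2. Bcl3 transcripts were thus still counted in both KO libraries, and the chimeras differed more than the genotypes did (log2 fold change -0.33 ± 0.58 SE, adjusted p = 0.837 by edgeR's quasi-likelihood test). With the chimera as a replicate block, which compares the libraries within each chimera, the value was -0.31 ± 0.08, adjusted p = 0.0201, and -0.43 ± 0.08, adjusted p = 0.0011, in the T cell clusters. Since no source used here says which exons the KO allele lacks, these tags from the 3′ end do not check the genotype labels. WT and KO below are the labels of the libraries.

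JAKs are tyrosine kinases bound to cytokine receptor chains. When a cytokine such as IL-2, IL-7, IL-12 or an interferon binds, they phosphorylate STATs, which enter the nucleus and turn on target genes, among them SOCS genes and Cish, whose products damp the same receptors. In CD8+ T cells this pathway carries the signals that sustain memory precursors and drive effector differentiation.

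Cells were put into T cell states by clustering each library without the 10 members and 49 other pathway genes. Each cluster was then named from lists of marker genes, or left unnamed. Terminal effector-like clusters, led by Gzma, S1pr5 and Zeb2, held 512, 644, 1204 and 1115 cells in WT1, KO1, WT2 and KO2. Interferon-stimulated clusters, with Ifit1, Ifit3 and Isg15 among their top 10 genes, held 389, 777, 283 and 412 cells. In KO1 this cluster was led by the globin gene Hbb-bs and also had Hba-a1 and Hba-a2 among its top 10. It met 3 of the 9 interferon-stimulated markers, against 7 in WT1 and 8 in WT2 and KO2, so it was less clearly of this state. MPEC-gene clusters, which met the lists for memory precursor effector cells or naive T cells (Ccr7, Tcf7, Id3, Dapl1), held 315, 422 and 171 cells in WT1, WT2 and KO2, while the 52 KO1 cells of this kind were under the 1% set for a cluster and were left out. Each of these 3 clusters had more naive T markers than MPEC markers among its top 10 genes, and the lists share genes such as Tcf7, so the name stands for the genes and not for a cell type. Cycling clusters held 805, 399, 1058 and 691 cells, and the other T cells, 2606, 3103, 4749 and 3665 in the same order, met no list. A cycling cluster of KO1 was led by the basophil and mast cell genes Prss34, Mcpt8 and Fcer1a, and cycling clusters of WT1, WT2 and KO2 had globin genes among their top 10. The clusters that met no list were led by Tcf7 or Il7r in part of KO1 and KO2 and by Il7r in part of WT1. A KO1 cluster of 476 cells among them had the terminal effector markers Cx3cr1 and Klrg1 in its top 10, and a WT1 cluster of 1023 cells had Klrg1. The clusters that met no list are thus not 1 cell type. With the pathway genes kept for clustering, the terminal effector-like clusters held 459, 1169, 1109 and 1093 cells in WT1, KO1, WT2 and KO2. Differences between states are descriptions only, since the states were drawn from the same cells.

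The promoters of Socs1 and Socs3 are shown because these feedback inhibitors varied widely between states and a motif searched for was found in them, while that of Cish held 0 matches. The 250 bases before the start of each gene's RefSeq transcripts (GRCm38.p6) gave 13 promoters for the 10 genes. Motifs were searched on both strands. The STAT site TTCNNNGAA occurred in 1 of the 10 genes, Socs3, at 154 bases before the start, and in 7.02% of all 32851 promoters. The interferon response core GAAANNGAAA, which was added after the Socs1 sequence had been seen, occurred in Socs1, in overlapping matches at 83 and 77 bases before the start, and in 1 promoter of Stat4, against 2.98% of all promoters. Capitals mark these matches. The minus-strand sequence of Socs1 is chr16:10785537-10785786, and that of Socs3 is chr11:117969452-117969616, which leaves out the bases nearest the start that lie in an annotated exon.
Socs1: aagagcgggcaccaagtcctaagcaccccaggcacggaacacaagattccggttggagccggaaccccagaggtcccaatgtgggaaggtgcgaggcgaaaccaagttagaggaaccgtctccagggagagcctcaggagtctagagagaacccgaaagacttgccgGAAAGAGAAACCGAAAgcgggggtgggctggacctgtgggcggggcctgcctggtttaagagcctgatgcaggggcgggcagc
Socs3: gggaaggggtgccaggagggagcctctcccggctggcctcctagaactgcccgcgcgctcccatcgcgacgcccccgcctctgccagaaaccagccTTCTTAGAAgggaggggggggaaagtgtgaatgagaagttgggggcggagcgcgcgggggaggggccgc
A match describes the letters only and does not show binding. The spaced form TTCNNNNGAA, the type bound by STAT6, occurred in 0 of the 13 promoters and in 5.85% of all. The kappaB motif occurred in 1 promoter of Stat5a and in 3.90% of all.

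Jak3, the kinase bound to the common gamma chain of the IL-2, IL-7 and IL-15 receptors (chr8:71676296-71690575, plus strand, GRCm38), was lower in KO cells. In the T cell clusters it was at 59.8 CPM in WT1 and 57.1 CPM in WT2, against 34.4 CPM in KO1 and 36.1 CPM in KO2. Both WT libraries stood above both KO libraries, by far more than libraries of 1 genotype differed. The log2 fold change was -0.74 ± 0.09 (SE), adjusted p = 0.0439 by edgeR, the single member of the 10 called in this comparison, in which 0.279% of 11108 genes were called. With the chimera as a replicate block the value was -0.74, adjusted p = 3.82e-06, where 11.1% of genes were called. Leaving out any 1 of WT1, WT2, KO1 or KO2 kept the direction, between -0.81 and -0.69, but took the adjusted p past 0.05, to between 0.0551 and 0.0962. Over all cells the value was -0.73 ± 0.09, adjusted p = 0.0354, with 0.363% of genes called. Without KO2 the adjusted p over all cells was 0.0634, and in equal numbers of cells thinned to 1000 UMIs it was 0.0989 with a log2 fold change of -0.60.

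Jak3 was lower in KO in each state. In the terminal effector-like clusters it was at 62.5 CPM in WT1 and 60.4 CPM in WT2, against 34.6 CPM in KO1 and 32.4 CPM in KO2, a log2 fold change of -0.90 ± 0.16, adjusted p = 0.0168. In the clusters that met no list the values were 61.5 and 59.1 CPM in WT1 and WT2 and 33.1 and 35.1 CPM in KO1 and KO2, a log2 fold change of -0.84 ± 0.10, adjusted p = 0.0469, and Jak3 was the 1 member called where 0.174% of genes were. The genotypes did not overlap in either state, and the effects differed little (interaction -0.07 ± 0.16, adjusted p = 0.944). Without WT1 the terminal effector-like call was lost (-0.85, adjusted p = 0.0573). In the interferon-stimulated clusters Jak3 was at 72.5 and 58.8 CPM in WT1 and WT2 and at 42.05 and 50.04 CPM in KO1 and KO2 (-0.62 ± 0.20, adjusted p = 0.454, or 0.0155 with the replicate block). Jak3 reached 65.7 CPM in WT1, 56.1 CPM in WT2 and 40.7 CPM in KO2 in the MPEC-gene clusters. By state its level differed from the clusters that met no list by 0.0016 ± 0.0759 on the log2 scale in the terminal effector-like clusters (SD, n = 4 libraries) and by 0.27 ± 0.21 in the interferon-stimulated clusters, where 3 of 4 libraries were higher and KO2 the most, by 0.50. Within the last 500 bases of its annotated transcripts, 41.5% of 50-base stretches also belong to Insl3, which lies under the longest Jak3 transcript on the same strand. Insl3 had 0, 0, 2 and 0 UMIs in WT1, KO1, WT2 and KO2, which does not show how reads in the shared stretches were counted.

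**Figure D1:**
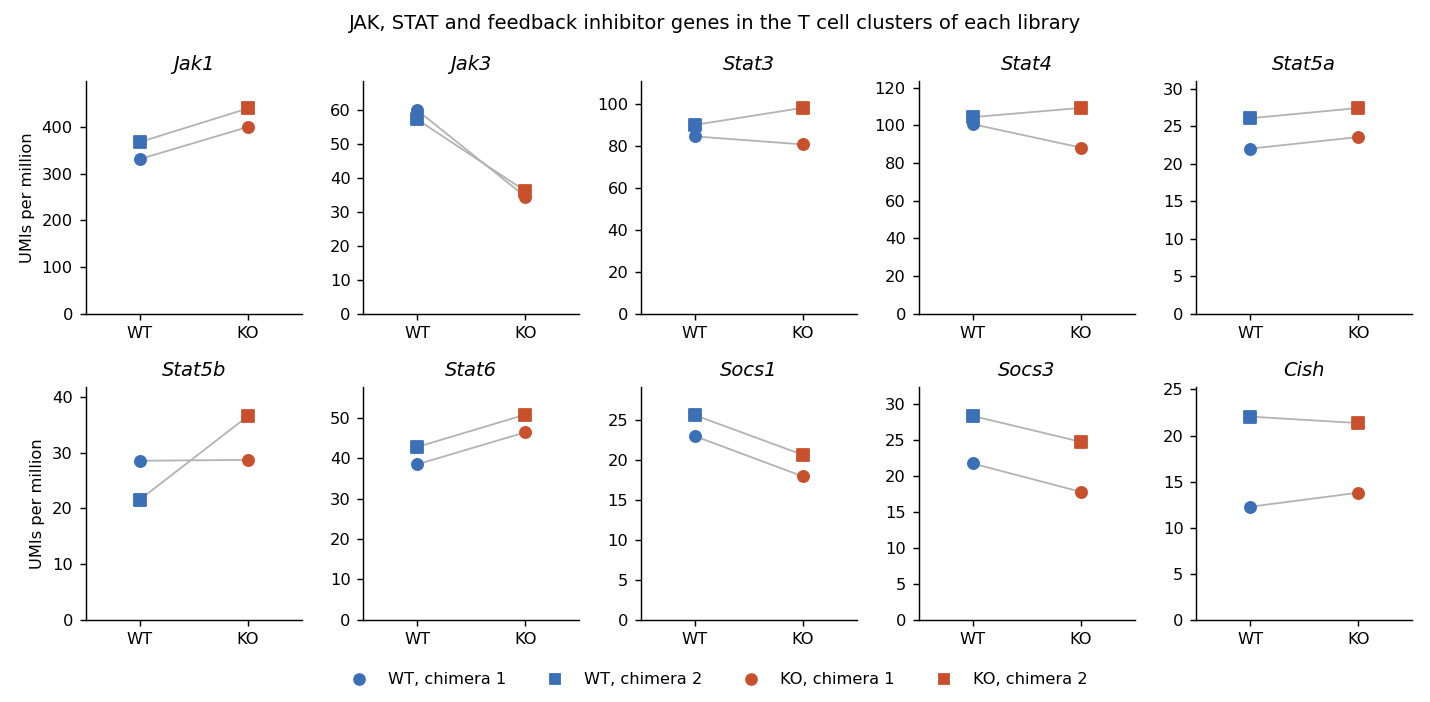
Level of each of the 10 genes in the T cell clusters, in CPM from 0, for WT and KO libraries of chimera 1 (circles) and chimera 2 (squares), with a line joining the libraries of 1 chimera. Jak3 falls in both chimeras, from 59.8 and 57.1 CPM to 34.4 and 36.1 CPM, while Stat3, Stat4 and Cish move in opposite directions in the 2 chimeras.

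Jak1, the kinase shared by gamma-chain, interferon and IL-6 family receptors (chr4:101152367-101265282, minus strand), was set apart by state. In the terminal effector-like clusters it was at 548 CPM in WT1, 768 CPM in KO1, 583 CPM in WT2 and 742 CPM in KO2. In the clusters that met no list it was at 348, 382, 360 and 416 CPM in the same order. Every library was higher in the terminal effector-like clusters, by 0.80 ± 0.16 on the log2 scale (SD, n = 4 libraries), and the 2 sets of levels did not overlap. The 5 NK cell markers, all of them detected and with Klrb1c the most abundant, were also higher in the terminal effector-like clusters, at a sum of 108, 165, 209 and 113 CPM in WT1, KO1, WT2 and KO2 against 16.1, 22.9, 25.4 and 15.8 CPM in the clusters that met no list, and their part in the Jak1 level was not tested. In each of the 4 libraries the cycling clusters had the lowest Jak1 level of the T cell states present, 244 to 301 CPM. That was 0.47 ± 0.04 below the clusters that met no list (-0.47). Some of the cycling clusters were led by genes of other cells, as described above. By genotype, Jak1 in the T cell clusters was at 332 and 368 CPM in WT1 and WT2 and at 400.5 and 440.3 CPM in KO1 and KO2. Both KO libraries were higher, with a log2 fold change of 0.26 ± 0.10, adjusted p = 0.322, or 0.0149 with the replicate block. Within the terminal effector-like clusters the value was 0.39 ± 0.12, adjusted p = 0.170, or 0.0109 with the replicate block, and the interaction with state was 0.23 ± 0.07, adjusted p = 0.180. The 6 terminal effector markers were also higher in the KO libraries there, at a sum of 12387 and 10082 CPM in KO1 and KO2 against 4816 and 6236 CPM in WT1 and WT2, and their part in the Jak1 difference was not tested.

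In the T cell clusters edgeR called 0 of the 5 STATs by genotype without the block, where it called 0.279% of all genes. The unadjusted p was under 0.05 for 1 STAT and for 1535 of all 11108 genes. DESeq2 called 0 of the STATs, where it called 1.47% of all genes. With shares so low, 0 of 5 says little about the STATs. Stat6, which answers to IL-4 (chr10:127642986-127660957, plus strand), was at 38.5 and 42.9 CPM in WT1 and WT2 and at 46.5 and 50.9 CPM in KO1 and KO2. Both KO libraries were higher, but the test was not passed (0.25 ± 0.09, adjusted p = 0.296, or 0.0691 with the block). Stat5b, which with Stat5a carries IL-2 and IL-7 signals (chr11:100780731-100850724, minus strand), was at 28.5 CPM in WT1, 28.7 CPM in KO1, 21.5 CPM in WT2 and 36.5 CPM in KO2, so that nearly all of its difference lay in chimera 2 (0.36 ± 0.17, adjusted p = 0.389). In the clusters that met no list Stat5b had a log2 fold change of 0.33 ± 0.18, adjusted p = 0.560, or 0.0416 with the replicate block, where 8.92% of genes were called. There too the difference lay in chimera 2 (log2 ratio 0.77, against -0.04 in chimera 1), and the value was 0.08 without WT2, 0.20 without KO2 and 0.61 without WT1. Stat5b in the terminal effector-like clusters was at 21.9 and 19.4 CPM in WT1 and WT2 and at 28.0 and 37.8 CPM in KO1 and KO2. Both KO libraries were higher there, but the test was not passed (0.68 ± 0.21, adjusted p = 0.170, or 0.0777 with the block). Both were also higher in the interferon-stimulated clusters, at 32.2 and 40.03 CPM against 25.1 and 11.8 CPM (0.72 ± 0.31, adjusted p = 0.591, or 0.139 with the block), where WT2 rested on 7 UMIs. Stat3, the STAT of IL-6, IL-10 and IL-21 (chr11:100885098-100939540, minus strand), ranged from 80.8 CPM in KO1 to 98.3 CPM in KO2. Stat4, the STAT of IL-12 (chr1:51987148-52107189, plus strand), ranged from 88.2 CPM in KO1 to 109 CPM in KO2. For both, the KO libraries lay at either end of the range and the WT libraries between them, and the log2 fold changes were 0.02 ± 0.10 and -0.07 ± 0.10.

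By T cell state, Stat5a (chr11:100859351-100885169, plus strand) was highest in the MPEC-gene clusters, at 33.7 CPM in WT1, 41.0 CPM in WT2 and 42.5 CPM in KO2. In the clusters that met no list of the same libraries it was at 18.5, 24.8 and 27.2 CPM. It was higher in 3 of 3 libraries, by 0.72 ± 0.11 on the log2 scale (SD), and the levels did not overlap. Sorting cells by marker UMIs in place of clusters gave -1.26, from few UMIs. By genotype Stat5a differed by 0.07 ± 0.12, adjusted p = 0.817. Stat4 was lower in the cycling clusters than in the clusters that met no list in 4 of 4 libraries (-0.54 ± 0.08), at 63.6 to 83.0 CPM against 94.8 to 115 CPM. Some of the cycling clusters were led by genes of other cells, as described above, whose part in the Stat4 level was not tested. Stat3 was higher in the interferon-stimulated clusters in 4 of 4 libraries (0.29 ± 0.19), with levels that overlapped those of the clusters that met no list. For Stat5b and Stat6 the mean difference from the clusters that met no list was at most 0.26 on the log2 scale in each state, but single libraries departed further, such as Stat5b at -0.82 in the interferon-stimulated cluster of WT2 and Stat6 at -0.53 in the cycling clusters of KO1. In the Stat5a tail 5.60% of 50-base stretches also belong to Stat5b, so that reads there could come from either gene.

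**Figure D2:**
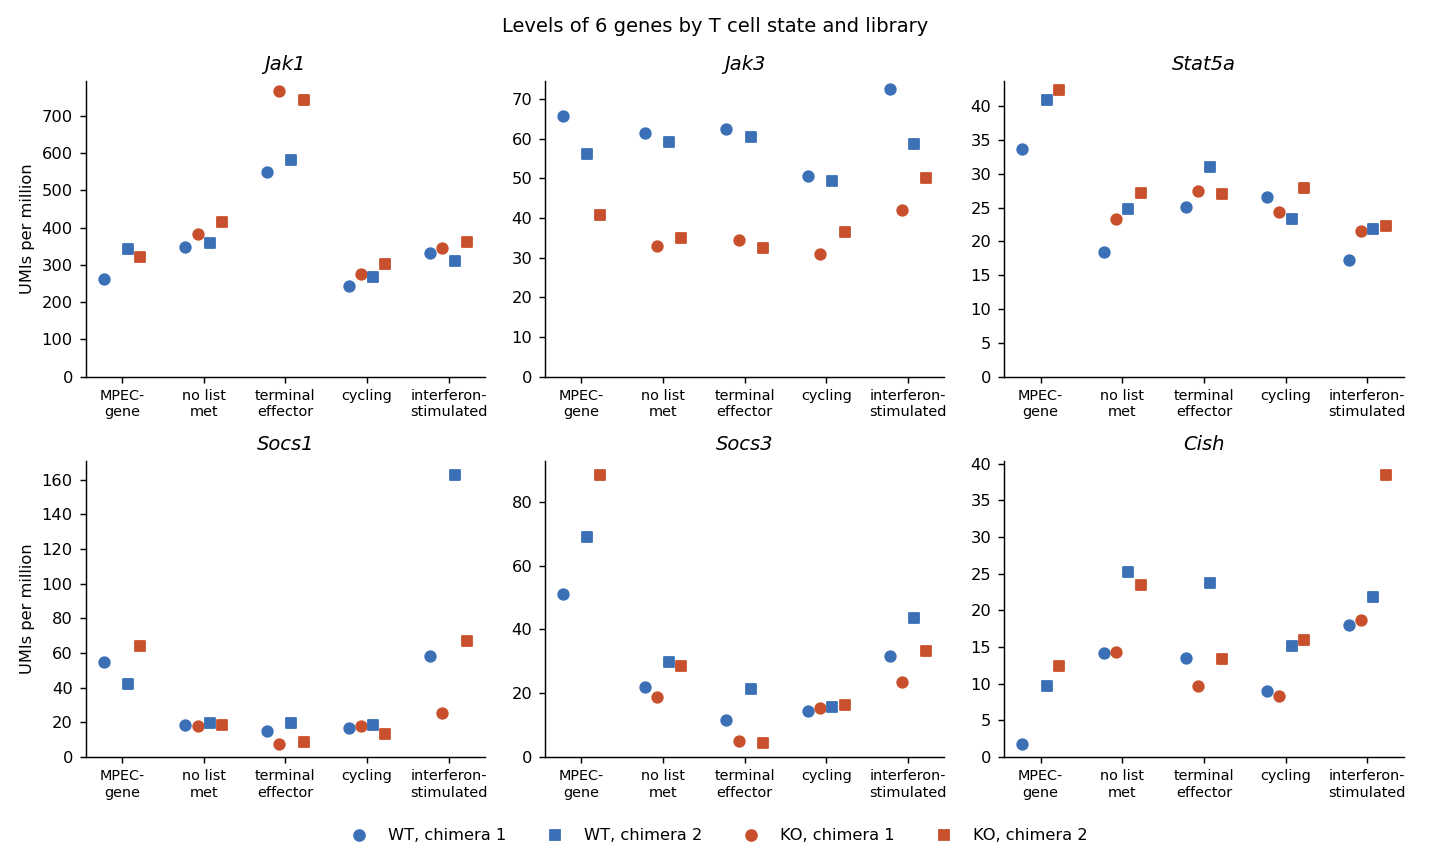
Levels of 6 genes in CPM, from 0, by T cell state (x axis) and library (blue WT, red KO, circles chimera 1, squares chimera 2); KO1 has no MPEC-gene cluster. Jak1 is highest in the terminal effector-like clusters, at 548 to 768 CPM, Socs3 in the MPEC-gene clusters, at 51.0 to 88.5 CPM, and Jak3 splits by genotype in each state.

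Among the feedback inhibitors, Socs3, which blocks signalling from gp130 receptors (chr11:117966079-117970047, minus strand), spanned the widest range between states on the log2 scale averaged over libraries (2.82, against 2.34 for Socs1). Among the T cell states Socs3 was highest in the MPEC-gene clusters, at 51.0 CPM in WT1, 69.0 CPM in WT2 and 88.5 CPM in KO2. In the clusters that met no list it was at 22.0, 29.8 and 28.4 CPM. That was a rise of 1.32 ± 0.24 on the log2 scale (SD, n = 3 libraries) in 3 of 3 libraries. The 5 CD4 T cell markers, of which Tnfrsf4 was the most abundant, also stood higher there, summing to 141, 143 and 184 CPM in WT1, WT2 and KO2 against 8.21, 10.3 and 8.30 CPM in the clusters that met no list, with Foxp3 at 0 in WT2. Their part in the levels of Socs3, Socs1 and Stat5a in these clusters was not tested. In the terminal effector-like clusters Socs3 was at 11.6 CPM in WT1 (18 UMIs), 21.1 CPM in WT2 (49 UMIs), 5.08 CPM in KO1 (10 UMIs) and 4.35 CPM in KO2 (13 UMIs). All 4 libraries were lower there than in the clusters that met no list, and both KO libraries were below both WT libraries.

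The genotype difference of Socs3 in the terminal effector-like clusters was -1.88 ± 0.38 (SE) on the log2 scale, adjusted p = 0.0307 by edgeR. Socs3 and Jak3 were the 2 of 10 members called there, both lower in KO, where 1.71% of 8228 genes were called, and the median log2 fold change was -0.17 over the members and 0.0059 over all genes. In the clusters that met no list Socs3 was at 22.0 and 29.8 CPM in WT1 and WT2 and at 18.9 and 28.4 CPM in KO1 and KO2, and these values overlapped (-0.15 ± 0.20, adjusted p = 0.819). The difference between the effects in the 2 states was -1.77 ± 0.34, adjusted p = 0.00489, and Socs3 was the 1 member called in this interaction, with 1.37% of 10095 genes called. The call within the terminal effector-like clusters was lost without WT2 (-1.37, adjusted p = 0.346), without KO2 (-1.70, adjusted p = 0.0800) and with the pathway genes kept for clustering (-1.84, adjusted p = 0.0624), and that of the interaction without WT2 (-1.48, adjusted p = 0.182) and without KO2 (-1.27, adjusted p = 0.276). Over all T cell clusters Socs3 was at 21.7, 17.8, 28.3 and 24.7 CPM in WT1, KO1, WT2 and KO2, with no difference called (-0.25 ± 0.17, adjusted p = 0.562). Leaving out 1 library moved this value to between -0.45 and -0.07.

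Other genes moved with Socs3 inside the terminal effector-like clusters. The 6 terminal effector markers summed to 4816 CPM in WT1, 12387 CPM in KO1, 6236 CPM in WT2 and 10082 CPM in KO2, with Gzma the most abundant. The 7 MPEC markers summed to 365, 189, 257 and 200 CPM in the same order, with Bcl2 the most abundant, and 1 of them (Xcl1) was at 0 in WT2. Il7r was at 72.8, 17.8, 27.6 and 8.02 CPM in WT1, KO1, WT2 and KO2. Summed over each list, the WT clusters thus held more MPEC marker transcripts and fewer terminal effector transcripts than the KO clusters. Bcl2, at 209, 116, 169 and 134 CPM in WT1, KO1, WT2 and KO2, and Il7r made up most of the MPEC sums. The part of these markers in the Socs3 difference was not tested. Barcodes with at most 50 UMIs, taken as empty droplets, held Socs3 at 25.3, 30.1, 22.8 and 37.5 CPM in WT1, KO1, WT2 and KO2. Of the Socs3 UMIs, 14.1, 30.4, 11.4 and 21.5% lay outside the T cell clusters in WT1, KO1, WT2 and KO2. Over all libraries 13.1% lay in clusters named by myeloid markers and 3.31% in those named by B cell markers. In KO1 these clusters held 64 and 55 Socs3 UMIs. Those named by B cell markers in KO1 included a cluster of 110 cells led by Lyz2, which met 7 myeloid and 3 B cell markers. The clusters led by Lyz2 in WT1, WT2 and KO2 were named by myeloid markers. The B cell and myeloid shares are therefore not like for like between libraries. The 52 cells left out of KO1 had Socs3 among their top 10 genes.

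Socs1, the inhibitor of interferon and gamma-chain signals (chr16:10782240-10785536, minus strand), was highest among the T cell states in the interferon-stimulated clusters. It was there at 58.1 CPM in WT1, 25.2 CPM in KO1, 163 CPM in WT2 and 67.0 CPM in KO2. In clusters named by B cell markers, outside these states, Socs1 was at 81.8, 74.8, 80.4 and 70.7 CPM in the same order. Those of KO1 included the cluster led by Lyz2 described above. In the clusters that met no list Socs1 was at 18.5, 17.7, 19.8 and 18.5 CPM. It was higher in the interferon-stimulated clusters in 4 of 4 libraries, by 1.72 ± 1.02 on the log2 scale (SD), and by 1.43 ± 0.35 in the MPEC-gene clusters in 3 of 3 libraries. Within each chimera the interferon-stimulated level was higher in WT than in KO, but the WT and KO levels overlapped between chimeras (-1.33 ± 0.49 SE, adjusted p = 0.528). With the replicate block, which compares within the chimera, the value was -1.31 ± 0.18, adjusted p = 5.46e-11. The 9 interferon-stimulated markers, with Ifi27l2a the most abundant, summed to 2658 CPM in WT1, 1159 CPM in KO1, 7797 CPM in WT2 and 3638 CPM in KO2 in these clusters, lower in KO within each chimera like Socs1, and their part in the Socs1 difference was not tested. In the clusters that met no list they summed to 714, 594, 1447 and 855 CPM in WT1, KO1, WT2 and KO2. The sum in the KO1 interferon-stimulated cluster was thus below that of the WT2 clusters that met no list. No member was called in the interferon-stimulated clusters without the block, where 0.135% of 7398 genes were. The unadjusted p was under 0.05 for 3 members and for 601 of all genes. The block called Jak3 and Socs1 and 4.83% of all genes. The fit called Socs1 without WT1 (-2.005, adjusted p = 9.87e-09) and without KO2 (-2.08, adjusted p = 0.0305), and without WT2 the value was -0.54.

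In the terminal effector-like clusters Socs1 was at 14.8 CPM in WT1, 7.63 CPM in KO1, 19.4 CPM in WT2 and 8.36 CPM in KO2. Both KO libraries were lower, and the unblocked test was not passed (-1.13 ± 0.30, adjusted p = 0.101). The interferon-stimulated markers summed to 621, 393, 1042 and 541 CPM there in WT1, KO1, WT2 and KO2, with Rsad2 at 0 in WT2, and so were lower in both KO libraries, as were the MPEC sums given above. Their part in the Socs1 difference was not tested. With the replicate block the adjusted p was 0.0337, and Jak1, Jak3, Socs1 and Socs3 were called, with 5.43% of genes. Over the T cell clusters Socs1 differed by -0.34 ± 0.11, adjusted p = 0.265, or 0.0474 with the replicate block, a call that was lost over all cells (-0.23, adjusted p = 0.175 with the block, which called 9.65% of genes there). The T cell clusters of KO1 lack the 52 cells left out, which are of the MPEC-gene kind where the other libraries had more Socs1. Of the Socs1 UMIs, 13.6, 24.4, 14.9 and 19.2% lay outside the T cell clusters in WT1, KO1, WT2 and KO2. Over all libraries 8.89% lay in clusters named by B cell markers and 7.53% in those named by myeloid markers. In KO1 these clusters held 98 and 7 Socs1 UMIs, with the cluster led by Lyz2 counted among those named by B cell markers. Their part in the call lost over all cells was not tested.

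Cish, an inhibitor induced through STAT5 (chr9:107296026-107302784, plus strand), ran opposite to Socs3 by state in the MPEC-gene clusters. It was at 1.73 CPM in WT1 (2 UMIs), 9.71 CPM in WT2 (9 UMIs) and 12.4 CPM in KO2 (7 UMIs) there, against 14.1, 25.2 and 23.5 CPM in the clusters that met no list, and was lower in 3 of 3 libraries (-1.54 ± 0.83). Over the T cell clusters it was at 12.3 and 13.8 CPM in WT1 and KO1 and at 22.1 and 21.4 CPM in WT2 and KO2. The chimeras lay further apart than the genotypes (0.02 ± 0.28, adjusted p = 0.978). In the terminal effector-like clusters it was at 13.5, 9.66, 23.7 and 13.4 CPM in WT1, KO1, WT2 and KO2 (-0.73 ± 0.31, adjusted p = 0.329). Leaving out WT2 moved this value to -0.27, and leaving out WT1 to -1.01.

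**Figure D3:**
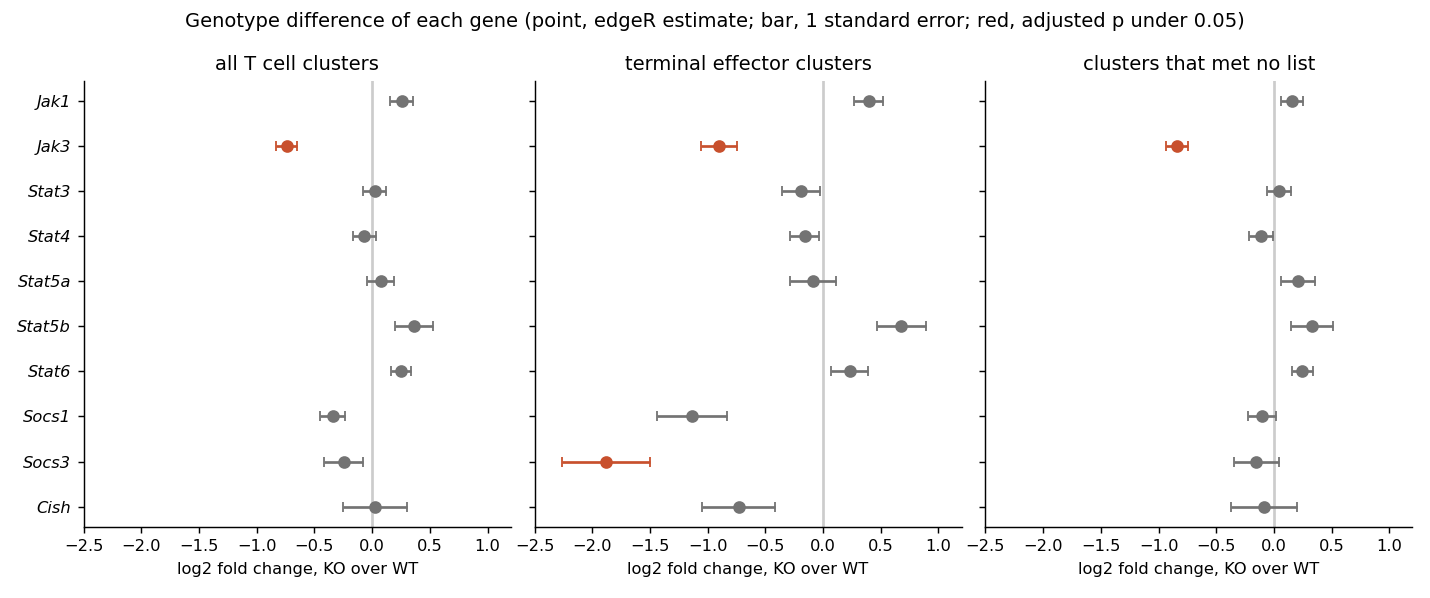
Log2 fold change of KO over WT from edgeR (x axis) for each of the 10 genes, with bars of 1 standard error, in all T cell clusters, the terminal effector-like clusters and the clusters that met no list; red marks an adjusted p under 0.05. Jak3 is red in all 3 panels, at -0.74, -0.90 and -0.84, and Socs3 in the terminal effector-like clusters alone, at -1.88.

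In the MPEC-gene clusters a genotype test was possible where the pathway genes were kept for clustering, which gave 315, 132, 437 and 203 cells in WT1, KO1, WT2 and KO2. None of the 9 members tested was called by edgeR there, where 0.736% of 6523 genes were called. The unadjusted p was under 0.05 for 2 members and for 509 of all genes. Jak3 differed by -0.56 ± 0.24, adjusted p = 0.549, and Socs3 by 0.54 ± 0.21, adjusted p = 0.438.

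By correlation across 19 library and state sums, centred within each library, the genes most like Socs3 were Spint2 (r = 0.95), Ssbp2 (r = 0.93) and Emb (r = 0.92). Those most like Socs1 were the activation marker Cd69 (r = 0.97), Ms4a4c (r = 0.95) and the interferon-induced GTPase Iigp1 (r = 0.92). Of those most like Cish, Fam160a2 and the chemokine receptor Ccr2 each had r = 0.90. The sums share libraries and cells, so these values describe the pattern only.

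Of the other pathway genes, 48 are reported, in 5 groups, with Il2ra in both of the last ones. In the T cell clusters all 48 were tested. Without the block edgeR called 0 of them, and DESeq2 called 1, Il21r, higher. The shares of all genes called were 0.279% and 1.47%, so that neither count stood apart from the background. The unadjusted p by edgeR was under 0.05 for 9 of the 48 and for 1535 of all 11108 genes. With the replicate block 3 were higher in KO (Il21r, Tbx21, Il10rb) and 4 lower (Pim2, Il2rg, Usp18, Ifngr1), where the block called 11.1% of all genes. In the terminal effector-like clusters 43 of the 48 were tested and 1 fell, where 1.71% of all genes were called. Ifngr1, a chain of the interferon gamma receptor, was at 604 CPM in WT1, 392 CPM in KO1, 741 CPM in WT2 and 434 CPM in KO2 (-0.73 ± 0.13, adjusted p = 0.0184). Both WT libraries stood above both KO libraries.

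By group, 0 of 3 other JAKs and STATs fell in the terminal effector-like clusters, 0 of 4 other SOCS genes, 0 of 11 other inhibitors, 1 of 15 receptor chains and 0 of 11 STAT-induced genes, with median log2 fold changes of 0.08, 0.10, 0.06, -0.30 and -0.31. The unadjusted p by edgeR was under 0.05 for 1, 0, 1, 6 and 6 genes of these groups in the same order. Over all genes it was under 0.05 for 1139 of 8228. With the replicate block 8 of the 43 were lower (Bcl2, Pim2, Il2rg, Usp18, Ifngr1, Il7r, Il2rb, Pim1) and 2 higher (Il21r, Tbx21), where 5.43% of all genes were called. The interaction with state called 6 of 45 genes, each lower in KO in the terminal effector-like clusters relative to the clusters that met no list. It called 1.37% of all genes, 114 lower and 24 higher. They were the receptor chains Il7r (-1.92 ± 0.26, adjusted p = 8.97e-05), Il2rb (-0.52 ± 0.09, adjusted p = 0.00235) and Ifngr1 (-0.36 ± 0.08, adjusted p = 0.0220), the survival gene Bcl2 (-0.63 ± 0.12, adjusted p = 0.00369), the kinase Pim2 (-0.67 ± 0.14, adjusted p = 0.0137) and Myc (-1.90 ± 0.43, adjusted p = 0.0186). Il7r and Bcl2 are also on the MPEC marker list. In the terminal effector-like clusters the terminal effector markers were higher in both KO libraries, as given above. The summed MPEC and interferon-stimulated markers were lower in both, though Il7r and Bcl2 made up most of the MPEC sums. Their part in these differences, and in that of Ifngr1 within the clusters, was not tested.

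**Figure D4:**
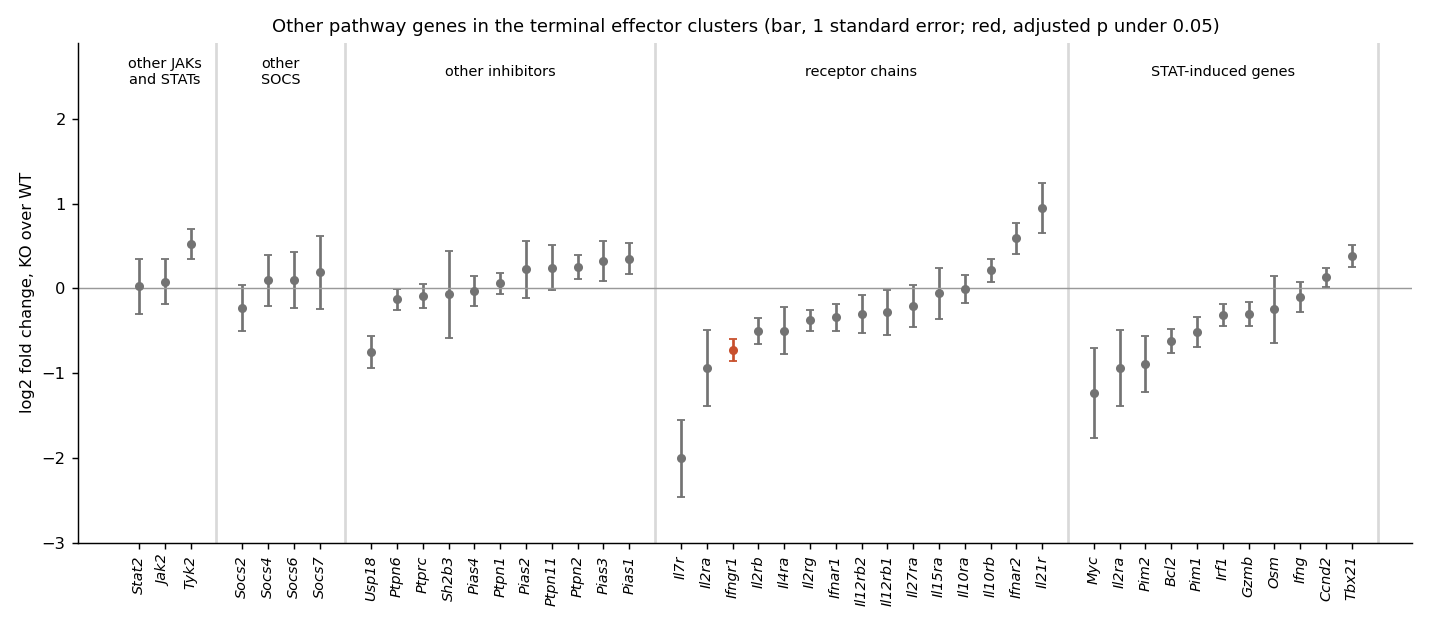
Log2 fold change of KO over WT (y axis) in the terminal effector-like clusters for 43 other pathway genes, ordered by value within each of 5 groups, with bars of 1 standard error; red marks an adjusted p under 0.05. Ifngr1 (-0.73) is red, and Il7r has the lowest value, -2.01, with an adjusted p of 0.0529.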

How the data were processed

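Libraries were made with the 10x 3′ version 2 kit. Per the submitters' processing notes the authors used bcl2fastq 2.17, Cell Ranger 2.2.0 and mm10, and deposited UMI counts per gene for all barcodes. From these counts, cells were kept from 500 genes up and to 10% mitochondrial UMIs. No doublets were called, and cells above 3 times the median UMIs were left out as an alternative. Each library was clustered in Seurat 5.3.0 (2000 variable genes without the pathway genes, 15 components, resolution 0.8), and clusters were named by at least 3 markers at 2-fold or more, 1 of them in the top 10. Genotype was tested on UMI counts summed per library and state (edgeR 4.0.16, quasi-likelihood, TMM, Benjamini-Hochberg over all genes, adjusted p under 0.05), with 2 libraries per genotype. The interaction was fitted with library terms. DESeq2 1.42.0 was an alternative. CPM values are per 1000000 UMIs of the same cells, and state differences are log2(CPM + 1). The cycling class was not tested by genotype, since some of its clusters had more globin genes than genes of the cycling marker list among their top 10. Same-numbered libraries were taken to come from 1 chimera, and their deviations from the genotype means had r = 0.18 over 6863 genes, which does little to check that pairing. The 10 members and 48 pathway genes are named by rule (results for some other genes are not reported here), and the 3 members with the widest range over states were compared with other genes. The members and lists were chosen with earlier results of these data known.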

Additional observations from a re-analysis of the deposited data

Results flagged for a closer look

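The genotype effect on Socs3 differed between the terminal effector-like clusters and the clusters that met no list by -1.77 on the log2 scale, by the interaction test given above. Cish was lower in KO in the terminal effector-like clusters of both chimeras (log2 differences of -0.49 and -0.83) and higher in KO in the interferon-stimulated clusters of both (0.06 and 0.82), a mean difference of -1.10 between the states; this difference was not tested.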

How the results depend on the processing

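With 2 libraries per genotype the number of genes called depended strongly on the fit. With the replicate block, paired by chimera, 1116 genes were called over all cells (42 without it), 1234 in the T cell clusters (31), 447 in the terminal effector-like clusters (141), 357 in the interferon-stimulated clusters (10), 924 in the clusters that met no list (18) and 150 in the MPEC-gene clusters (48). DESeq2 called 203 over all cells and 163 in the T cell clusters, where no filter on low counts left 11. With the pathway genes kept for clustering, 52 were called in the terminal effector-like and 33 in the interferon-stimulated clusters. States set by marker UMIs, an alternative chosen after seeing the data, gave 18, 2, 35 and 6 in the terminal effector-like, interferon-stimulated, no-list and MPEC-gene cells. Leaving out 1 library gave 40 to 228 genes over all cells, 12 to 93 in the T cell clusters, 110 to 170 in the terminal effector-like, 30 to 226 in the interferon-stimulated, 34 to 152 in the no-list and 50 to 90 in the MPEC-gene clusters, and 62 to 201 for the interaction. Where 1 library was left alone in its genotype, it was assumed to vary like the other. Values near 0 changed sign without 1 library: in the T cell clusters Stat3 (-0.0766 to 0.11), Stat4 (-0.18 to 0.0341), Stat5a (-0.0234 to 0.17) and Cish (-0.32 to 0.47), in the terminal effector-like clusters Stat3 (-0.45 to 0.0028) and Stat5a (-0.19 to 0.0501), Socs3 in the no-list clusters (-0.42 to 0.0672) and Jak3 in the interaction (-0.14 to 0.0228). Stat3 in terminal effector-like cells set by marker UMIs was at 0.34. By marker UMIs Jak3 was -0.74 there (adjusted p = 0.784) and -0.66 in the no-list cells (adjusted p = 0.105), and without a filter on low counts its adjusted p in the T cell clusters was 0.0910. The causes were not tested. Resolution 0.4 left no terminal effector-like cluster in WT1 and no interferon-stimulated or MPEC-gene cluster in KO1, so those tests were not run. Socs3 rested on 10 to 49 UMIs per library in the terminal effector-like clusters, and Cish on 2 to 9 in the MPEC-gene clusters.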
